A study of Mus musculus with 16 samples.

Results

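The transcripts of the MYC, MAX and MXD network were followed through activation of D10 cells, a mouse Th2 line, with and without inhibition of Akt. The members were the 9 genes Myc, Mycn, Max, Mxd1, Mxd3, Mxd4, Mxi1, Mnt and Mga, each taken as the 1 entry that carries its symbol among the 18138 genes on the arrays. Of the 9, 7 were bright enough to be tested, among 7395 genes tested in all, while Mycn and Mxd1 were above background on 0 of 16 arrays. Control cells were compared with cells that had been incubated for 1 h with 10 µM Akti1/2, an allosteric inhibitor of Akt1 and Akt2, and both were sampled at 0, 2, 6 and 12 h of stimulation through CD3 and CD28. Cells of every group were grown with 25 IU/ml of recombinant human interleukin 2, so that the 0 h cells had already seen a growth cytokine. The methods call the control cells untreated, whereas the results mention a solvent. D10 is 1 cloned line, and neither labels nor methods say whether the 2 arrays of a group came from separate cultures, so p-values may measure technical spread only.

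Each of the 8 groups had 2 arrays, and each of the 2 chips carried 1 array of every group. A gene counted as detected, or above background, when fewer than 1% of the 798 negative controls reached its brightness, which held for 6288 to 6907 genes per array. The brightness at the 95th percentile was 8.98 to 14.3 times the mean negative control, and it was lowest on replicate 2 of the Akti1/2-treated cells at 2 h. Levels are given as background-corrected, quantile-normalized log2 intensities. A probe's brightness depends on its sequence, so levels are compared between groups for 1 gene and not between genes. All 10 T helper and Th2 genes examined were detected: Cd4 was above background on 13 arrays, and Cd3d, Cd3e, Cd3g, Cd28, Gata3, Il4, Il5, Il13 and Il1rl1 on 16. Of 9 genes that mark other lymphocytes, myeloid cells or other helper subsets, Ms4a1, a B cell gene, was above background on 1 array and the others (Cd8a, Cd8b1, Itgam, Csf1r, Emr1, Ncr1, Foxp3 and Tbx21) on 0. Some T helper genes moved as well: with Akti1/2 the 6 h response was 1.19 higher for Cd28 (adjusted p = 0.00308) and differed by -0.46, -2.06 and -2.81 for Cd3e, Il5 and Il13 (adjusted p = 0.0491, 0.00225 and 0.00735). Their part in the results for the network was not tested, and in RNA from whole cultures fewer cells of a state and less RNA per cell cannot be told apart.

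MYC and its relatives MYCN and MYCL are basic helix-loop-helix leucine zipper factors that bind DNA as dimers with MAX at E-box elements and raise transcription of genes for growth. The MXD proteins (Mxd1, Mxd3, Mxd4 and Mxi1, also called Mxd2) and MNT compete for MAX, bind the same elements and recruit SIN3 and histone deacetylases, which lowers transcription, while MGA is a large MAX partner found in a repressive complex. In T cells, MYC is known as a short-lived factor that antigen receptor and cytokine signals induce, and it drives the growth and metabolic change that precede division.

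The E-box letters CACGTG, which read the same on both strands, were searched in the promoter windows of RefSeq (GRCm38.p6), which run from 250 bases before to 50 bases after each annotated start. Windows were found for 8 of the 9 members (not Myc), 10 windows in all, and the letters occurred in 1 window each of Max, Mxd4 and Mnt, against 7.15% of the 32851 windows of all genes. These stretches are shown because they are the kind of element that the network's own dimers bind, with the E-box in capitals and 10 bases on each side, on the strand of the gene:
Max, chr12:76962236-76962261, minus strand: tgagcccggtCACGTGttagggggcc
Mxd4, chr5:34187914-34187939, minus strand: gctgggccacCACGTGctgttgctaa
Mnt, chr11:74830791-74830816, plus strand: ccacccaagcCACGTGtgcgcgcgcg
The E-box of Max begins 3 bases before the annotated start and spans it, that of Mxd4 begins 219 bases before, and that of Mnt 123 bases before. A match describes the letters only, and binding was not measured.

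Myc was above background on all 16 arrays. In control cells its log2 intensity was 7.62 and 7.31 at 0 h, 6.58 and 6.27 at 2 h, 7.72 and 7.79 at 6 h, then 7.47 and 7.14 at 12 h. In Akti1/2-treated cells it was 7.76 and 8.19 at 0 h, 6.29 and 6.25 at 2 h, 6.81 and 6.42 at 6 h, then 6.70 and 6.80 at 12 h. Both arms therefore started high and were low at 2 h, and the control arrays alone were back at their starting level at 6 h. Ordered by group mean, the 0 h Akti1/2-treated cells were highest, followed by control cells at 6, 0 and 12 h, then Akti1/2-treated cells at 12 and 6 h, control cells at 2 h and Akti1/2-treated cells at 2 h. Neighbours in this order overlapped on single arrays except for 6 h over 0 h control cells (a gap of 0.29) and 12 h control over 12 h Akti1/2-treated cells (0.55).

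**Figure D1:**
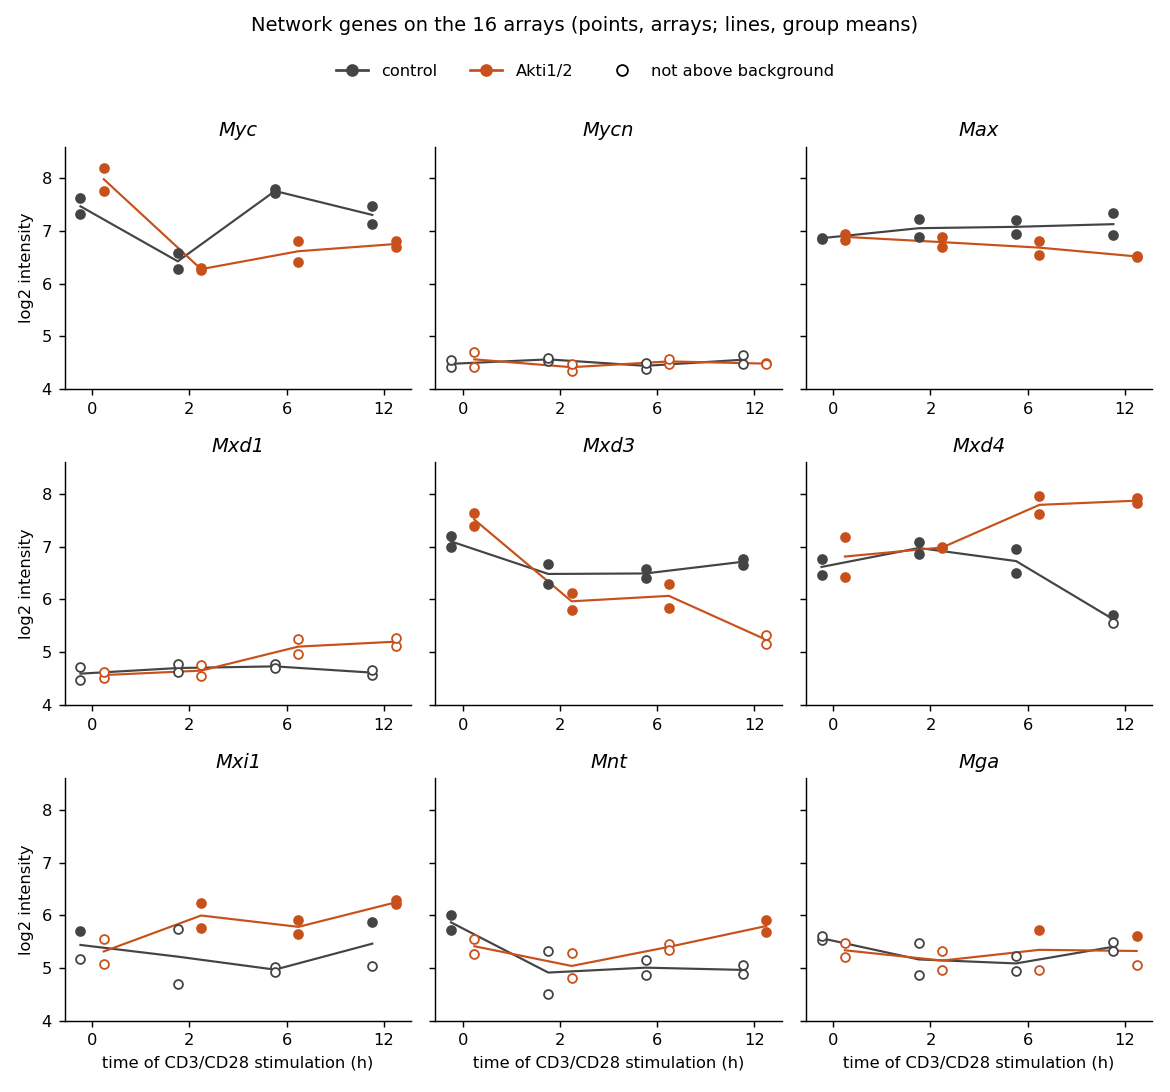
Log2 intensity (y axis) of the 9 network genes on each of the 16 arrays against hours of CD3/CD28 stimulation (x axis, evenly spaced); points are arrays, lines join group means, and open points are not above background. Myc is low in both arms at 2 h, and high at 6 h on both control arrays (7.72 and 7.79); Mxd4 ends at 7.92 and 7.83 with Akti1/2 and at 5.70 and 5.55 without.

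In control cells, stimulation lowered Myc and Mnt at 2 h, Mxd3 and Mnt at 6 h, and Mxd4 and Mnt at 12 h, and raised 0 members at any of these times. Over all genes tested, limma with Benjamini-Hochberg adjustment called 4.42% higher and 5.86% lower for 2 h, 12.1% higher and 15.4% lower for 6 h, and 12.7% higher and 15.1% lower for 12 h. Against this background 2 of 7 members were lower at each time (28.6%), and 0 were higher at an unadjusted p under 0.05 too. Mnt was among the 2 at each time, and of the control groups it was above background at 0 h alone. It was tested because of that group and the 12 h Akti1/2-treated cells, so the share is no measure of the members as a set. Scaling to the same mean moved the share of calls that were higher from 43% to 25.9% at 2 h and from 44% to 30.6% at 6 h. At 2 h Myc fell by 1.04 on the log2 scale (95% interval -1.45 to -0.64, adjusted p = 0.00384), to 0.485 of its 0 h level, with -1.04 within each chip. That call rests in part on 1 array: leaving out replicate 1 of the unstimulated control cells gave -0.89 (adjusted p = 0.0546). At 6 h Myc differed from 0 h by 0.29 (interval -0.11 to 0.69) and at 12 h by -0.16 (interval -0.56 to 0.24), and neither passed the test.

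Mnt, the most broadly expressed antagonist of MYC, was measurable in only 2 groups, control cells at 0 h and Akti1/2-treated cells at 12 h. Because Mnt entered the test through these groups alone, its calls against other groups are no independent support for a change. In control cells its log2 intensity was 6.01 and 5.72 at 0 h, above background, and 5.32 and 4.51 at 2 h, 5.15 and 4.87 at 6 h, then 5.05 and 4.88 at 12 h, not above background. The groups did not overlap, and since the later ones gave only a bound, the 0 h level was at least 1.14-fold higher than at 2 h, 1.14-fold than at 6 h and 1.11-fold than at 12 h (adjusted p = 0.0261, 0.0179 and 0.0133). Each of the 3 calls was lost without replicate 1 of the unstimulated control cells (adjusted p = 0.171, 0.125 and 0.102) and without replicate 2 of the later control cells (adjusted p = 0.212, 0.114 and 0.0843), and that at 2 h also without replicate 2 at 0 h (adjusted p = 0.068). The 2 h call of Mnt was lost too with dim genes kept (adjusted p = 0.0514) and in a fit of only the groups compared (adjusted p = 0.103). Mxd3, an MXD factor described in proliferating cells, read 7.21 and 6.99 at 0 h, 6.30 and 6.67 at 2 h, 6.42 and 6.57 at 6 h, then 6.66 and 6.77 at 12 h. All later control arrays lay below those at 0 h, and the difference passed the test at 6 h alone (-0.61, interval -1.01 to -0.21, adjusted p = 0.0268), with -0.62 at 2 h (adjusted p = 0.0518) and, by 12 h, -0.39 (adjusted p = 0.139). The 6 h call was lost without any 1 of the 4 arrays compared (adjusted p = 0.0532 to 0.164).

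Mxd4, an MXD factor linked with resting and differentiating cells, passed the test in control cells at 12 h alone, with 0.36 at 2 h and 0.11 at 6 h (adjusted p = 0.337 and 0.763). Its values were 6.76 and 6.47 at 0 h, 6.87 and 7.09 at 2 h, 6.96 and 6.50 at 6 h, then 5.70 and 5.55 at 12 h, where 1 of 2 arrays was above background. The 12 h arrays were the lowest of all, and Mxd4 fell by 0.99 from 0 h (interval -1.49 to -0.50, adjusted p = 0.00591), to 0.502 of its level; leaving out replicate 1 at 0 h gave -0.85 (adjusted p = 0.0581). Max, the obligate partner of MYC, read 6.85 and 6.87 at 0 h and 7.33 and 6.92 at 12 h, a difference of 0.27 that did not pass the test (interval -0.09 to 0.62). For Mxi1 and Mga, 6 and 8 of the 8 control arrays were at background, and no difference from 0 h passed.

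With Akti1/2, Myc and Mxd3 fell at 2, 6 and 12 h, Mxd4 rose at 6 and 12 h, and Mxi1 rose at 12 h. Over all genes, the 2 h samples had 17.8% called higher and 20.9% lower, those of 6 h 15.4% and 17.9%, and those of 12 h 21.1% and 23.4%. Of the 7 members, 0 were higher and 2 lower by 2 h, 1 higher and 2 lower by 6 h, and 2 higher and 2 lower by 12 h, with 0 higher at 2 h at an unadjusted p under 0.05 as well. The differences of Myc from 0 h were -1.71 at 2 h (interval -2.11 to -1.31, adjusted p = 4.38e-05), -1.37 by 6 h (adjusted p = 0.000142) and -1.23 by 12 h (adjusted p = 0.000188), to 0.306, 0.388 and 0.427 of its 0 h level. The chips gave -1.47 and -1.94 for 2 h, -0.95 and -1.78 for 6 h, and -1.06 and -1.40 for 12 h. Each of these calls was kept in every fit that left out 1 array.

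With Akti1/2 the Mxd3 values were 7.39 and 7.65 at 0 h, 5.80 and 6.13 at 2 h, 6.30 and 5.84 at 6 h, then 5.32 and 5.15 at 12 h, the last pair not above background. The differences were -1.55 at 2 h (interval -1.95 to -1.15, adjusted p = 8.14e-05) and -1.45 at 6 h (interval -1.85 to -1.05, adjusted p = 9.04e-05), and the 0 h level was at least 3.79-fold above that at 12 h (adjusted p = 1.25e-06). Mxd4 read 6.44 and 7.19 at 0 h, 7.0 and 6.97 at 2 h, 7.97 and 7.62 at 6 h, then 7.92 and 7.83 at 12 h. The 4 arrays at 6 and 12 h lay above all others of the gene, and Mxd4 rose by 0.98 at 6 h (interval 0.49 to 1.47, adjusted p = 0.00548) and by 1.06 at 12 h (interval 0.57 to 1.55, adjusted p = 0.00233). The 2 arrays at 0 h lay apart, and without the lower, replicate 1, the differences were 0.60 at 6 h (adjusted p = 0.0632) and, by 12 h, 0.68 (adjusted p = 0.0295). The 6 h call was also lost in a fit of only the groups compared (adjusted p = 0.0513).

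Mxi1, an MXD factor that is also a known target of FOXO factors, was above background on 6 of the 8 Akti1/2 arrays and on 2 of the 8 control arrays. With Akti1/2 it read 5.56 and 5.07 at 0 h, at background, then 5.77 and 6.23 at 2 h, 5.65 and 5.92 at 6 h, then 6.29 and 6.21 at 12 h. The 12 h level was at least 1.51-fold above that at 0 h (adjusted p = 0.0411), a call that was lost without either array at 12 h (adjusted p = 0.141 and 0.108), without replicate 2 at 0 h (adjusted p = 0.231) and, narrowly, without either control array at 6 h (adjusted p = 0.051 and 0.0513). With dim genes kept in the fit the call was lost too (adjusted p = 0.0921). In control cells Mxi1 read 5.17 and 5.71 at 0 h, 4.69 and 5.74 at 2 h, 5.02 and 4.92 at 6 h, then 5.05 and 5.88 at 12 h. At 2 and 12 h the control arrays lay further apart than the control means did. Between the arms Mxi1 did not pass limma's test at 2, 6 or 12 h (adjusted p = 0.104, 0.0789 and 0.0742). Nor did its response pass at these times (adjusted p = 0.26, 0.194 and 0.171).

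**Figure D2:**
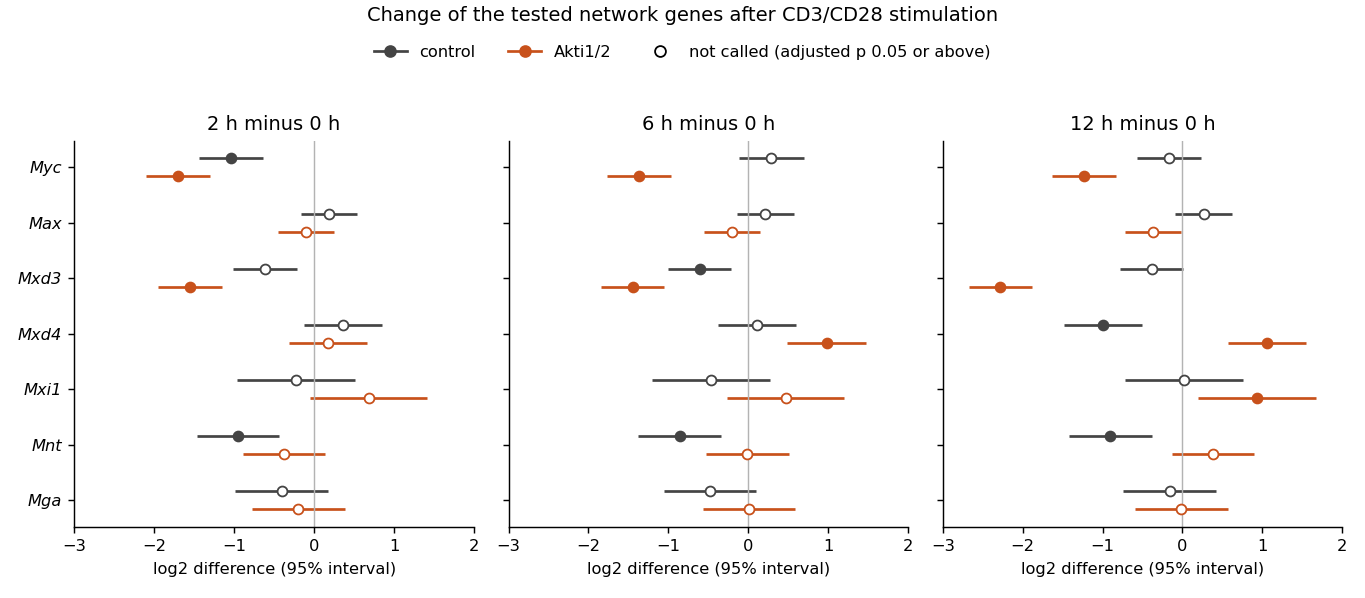
Log2 difference from 0 h (x axis, with 95% interval) of the 7 tested network genes at 2, 6 and 12 h in control (grey) and Akti1/2-treated cells (orange); filled points passed the test and open points did not. The intervals of Myc at 6 h (-0.11 to 0.69 in control cells and -1.77 to -0.97 with Akti1/2) and of Mxd4 at 12 h do not overlap; values of Mnt, Mxi1, Mga and 12 h Akti1/2 Mxd3 involve groups at background.

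Before stimulation, Akti1/2 changed 0 of 7 members by limma, with 2 at an unadjusted p under 0.05 (Myc and Mxd3, both higher with Akti1/2). Few genes of any kind were called there, 0.0406% higher and 0.0135% lower. Myc was 0.51 higher on the log2 scale (interval 0.11 to 0.91, adjusted p = 0.829) and Mxd3 0.41 higher (interval 0.02 to 0.81, adjusted p = 0.946). The arrays of the arms did not overlap for either gene, and the adjusted p left both uncalled. At 2 h again 0 of 7 members passed, with Mxd3 lower and Mxi1 higher at an unadjusted p under 0.05, while 13.6% of all genes were called higher and 14.9% lower. Myc differed by -0.15 at 2 h (interval -0.55 to 0.25), and its arrays overlapped.

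At 6 h Akti1/2 lowered Myc and raised Mxd4, where 18.8% of all genes were called higher and 18.7% lower (60.8% of calls higher with each array scaled to the same mean, against 50.1%). Myc differed by -1.14 from control cells (interval -1.54 to -0.74, adjusted p = 0.00046), 0.453 of the control level, and the chips gave -0.91 and -1.37. Mxd4 was 1.07 higher (interval 0.58 to 1.56, adjusted p = 0.00288), or 2.10-fold, with 1.01 and 1.12 on the chips. At 12 h, 24.2% of all genes were called higher with Akti1/2 and 24.8% lower. Mnt, which entered the test only through this Akti1/2 group and the 0 h control cells, was among the members called higher. Mxd4 was higher too, and Myc, Max and Mxd3 were lower. These were 5 of 7 members (28.6% higher and 42.9% lower), and 3 were called when replicate 1 of either arm at 12 h was left out.

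The difference of Mxd4 between the arms at 12 h was 2.25 (interval 1.76 to 2.74, adjusted p = 6.55e-06), which is 4.77-fold, with 2.38 and 2.13 on the chips. Its size depended on the processing: the other settings that kept all arrays gave 1.096 to 2.364, and the call was kept in each. The control arrays, 1 of them at background, were the lowest Mxd4 readings and the Akti1/2 arrays among the highest. Mxd3 was at least 2.17-fold lower with Akti1/2, whose arrays were both at background (adjusted p = 3.57e-05). Myc differed by -0.55 (interval -0.95 to -0.15, adjusted p = 0.0256), 0.682 of the control level, less than at 6 h, and the call was lost without replicate 1 of the control cells (adjusted p = 0.192) and without replicate 1 or 2 of the Akti1/2-treated cells (adjusted p = 0.115 and 0.0622). Max read 6.51 and 6.52 with Akti1/2, its lowest pair, and differed by -0.61 from control cells (interval -0.97 to -0.26, adjusted p = 0.0078), a call that was lost without replicate 1 of the control cells (-0.41, adjusted p = 0.0981). Mnt read 5.91 and 5.69 with Akti1/2, above background, and was at least 1.06-fold higher than in control cells (adjusted p = 0.0116), which was lost without replicate 2 of the control cells or replicate 1 of the Akti1/2-treated cells (adjusted p = 0.0717 and 0.0809).

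**Figure D3:**
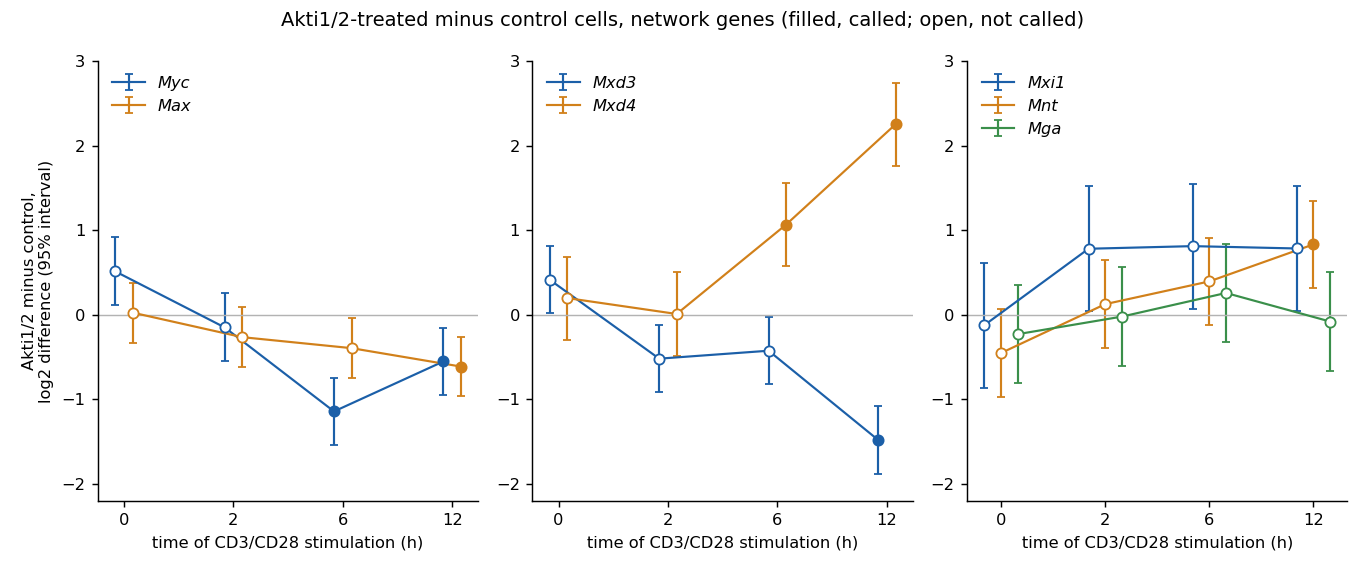
Akti1/2-treated minus control cells, as log2 difference with 95% interval (y axis), against hours of CD3/CD28 stimulation (x axis, evenly spaced) for the 7 tested network genes; filled points passed the test. Myc is lowest at 6 h (-1.14), while the difference of Mxd4 reaches 2.25 at 12 h. The 12 h points of Mxd3 and Mnt are fitted against a group at background and are bounded in size by at least 2.17-fold and 1.06-fold. All points of Mga, and those of Mnt and Mxi1 at 0, 2 and 6 h, also involve groups at background and do not measure a size.

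Whether the response to stimulation itself differed was tested by subtracting the change since 0 h in control cells from that in Akti1/2-treated cells. This takes in the 0 h difference, which for Myc and Mxd3 ran opposite to the later ones, and for Mnt opposite to that at 12 h, though none of these differences at 0 h passed the test. The response was called different for 1 member at 2 h (Mxd3, lower) and for 2 at 6 h (Myc and Mxd3, both lower). At 12 h it was called different for 4 (Myc and Mxd3 lower, Mxd4 and Mnt higher). Of these, Mnt was tested only through groups that raise its value. Over all genes, 4.25% of 2 h responses were called higher and 4.16% lower, with 10.3% higher and 9.24% lower for 6 h and 16.3% higher and 16.2% lower for 12 h. With each array scaled to the same mean instead, the share of called responses that were higher went from 50.5% to 64.7% at 2 h, from 52.7% to 71.9% at 6 h and from 50.2% to 60.6% at 12 h, and no called member turned its direction. At 6 h this scaling lost the call of Mxd3 (-0.62, adjusted p = 0.123) and gave calls to Mxd4 and Mnt (adjusted p = 0.0291 and 0.0356). At 2 h 0 members were higher, also at an unadjusted p under 0.05. At 6 h Mxd4 and Mnt were higher at that level without passing the adjusted test. Of the groups behind the 6 h response of Mnt, only the 0 h control cells were above background, so at neither scaling does it measure a size.

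The Myc response differed by -1.66 at 6 h (interval -2.22 to -1.09, adjusted p = 0.00118; chips -1.06 and -2.26) and by -1.07 at 12 h (interval -1.63 to -0.50, adjusted p = 0.00802; chips -0.58 and -1.55). At 2 h it differed by -0.66, which did not pass (interval -1.23 to -0.10, adjusted p = 0.133). The Mxd4 response was 2.06 higher at 12 h (interval 1.36 to 2.75, adjusted p = 0.000488; chips 2.70 and 1.41) and 0.87 higher at 6 h, which did not pass (adjusted p = 0.0751). The Mxd3 response differed by -0.93 at 2 h (adjusted p = 0.0451), -0.84 by 6 h (adjusted p = 0.0392; chips -0.29 and -1.39) and was called lower at 12 h (adjusted p = 0.000213), where the Akti1/2 arrays were at background and the size was not measured. The calls of Mxd3 at 2 and 6 h were lost in 13 and 8 of the 16 fits without 1 array, and at 2 h also with a replicate or chip term (adjusted p = 0.0559 and 0.055). Both were also lost in a fit of only the groups compared (adjusted p = 0.0662 and 0.0629) and with dim genes kept (adjusted p = 0.0833 and 0.0772). For Mnt the response at 12 h was called higher (adjusted p = 0.0113), but with 2 of the 4 groups at background its size was not measured. Mnt had entered the test only through the other 2 groups, which both raise this value, so the call is no support for a change. For Max it differed by -0.64 at 12 h and missed the threshold (adjusted p = 0.0511).

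Of the members that stayed at background, Mycn ranged from 4.35 to 4.70 over the 16 arrays. Mxd1, an MXD factor induced as cells stop dividing, read 4.96 to 5.28 on the 4 Akti1/2 arrays at 6 and 12 h and 4.47 to 4.77 on all others, and since none of these readings was above background no fold or test is given. Mga, which has no gene identifier in the file, was above background on 1 array each at 6 and 12 h with Akti1/2 and differed in 0 of 13 comparisons. Of 7 further relatives, 4 were tested. Bhlhe40 (Bhlhb2 in the file), a repressor that binds E-boxes, rose by 1.61, 1.83 and 2.05 in control cells (adjusted p = 0.00106, 0.00016 and 6.57e-05) and was 1.29 higher with Akti1/2 at 12 h (adjusted p = 0.00078). Mlx, which partners both MXD factors and MondoA, differed by -0.45 with Akti1/2 at 6 h and by -0.40 at 12 h (adjusted p = 0.0191 and 0.0264). Usf2, an E-box factor, was above background on 4 arrays only, both Akti1/2 arrays at 2 h and at 12 h. The response at 12 h was called higher with Akti1/2 for 1 of the 4 (25%, beside 16.3% of all genes), which was Usf2 (adjusted p = 0.021). Usf2 entered the test only through those Akti1/2 arrays, so the call and the share are no support for a change. No size is given, since the other groups it rests on were at background. The response of the 4 passed for 0 at 2 h (beside 4.25% of all genes higher and 4.16% lower) and for 0 at 6 h (beside 10.3% and 9.24%). At an unadjusted p under 0.05, 1 was higher at 2 h and 1 lower at 6 h. Mycl1, Mlxip and Mlxipl were at background throughout.

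Genes known as MYC targets were grouped by role. Of 30 listed genes of the nucleolus and ribosome assembly, 20 were tested. In control cells 2 were higher at 2 h, 13 at 6 h and 11 at 12 h (10%, 65% and 55%, beside 4.42%, 12.1% and 12.7% over all genes), with 0 lower (beside 5.86%, 15.4% and 15.1%). With Akti1/2, 7 were higher and 3 lower at 2 h (35% and 15%, beside 17.8% and 20.9%), 4 higher and 2 lower by 6 h (20% and 10%, beside 15.4% and 17.9%), and 2 higher and 9 lower by 12 h (10% and 45%, beside 21.1% and 23.4%). At 6 h their median difference from 0 h was 0.50 in control cells and 0.05 with Akti1/2, beside -0.02 in each case over all genes tested. The response was lower with Akti1/2 for 10 of 20 at 6 h (50%, median -0.56, beside 9.24% of all genes) and 13 at 12 h (65%, median -0.69, beside 16.2%), and at 2 h it was higher for 2 and lower for 0 (10% and 0%, beside 4.25% and 4.16%), where at an unadjusted p under 0.05 it was higher for 5 and lower for 3.

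The 4 named by lowest p were Nip7, a factor of 60S subunit assembly, Nop2 (Nol1 in the file), a methyltransferase of 28S rRNA, Ppan, a factor of 60S assembly, and Rrp9, a U3 snoRNP protein. Ppan read 7.41 and 7.40 at 0 h and 8.81 and 8.57 at 6 h in control cells, against 7.12 and 7.17 and then 7.44 and 7.65 with Akti1/2. It rose in both arms, by 1.28 and by 0.40, and the response differed by -0.88 with Akti1/2 (adjusted p = 0.00606). Rrp9 moved in opposite directions, by 0.49 in control cells (adjusted p = 0.0202) and by -0.50 with Akti1/2 (adjusted p = 0.0151), a difference in response of -0.99 (adjusted p = 0.0044). For Nip7 the response differed by -1.0 (adjusted p = 0.0016) and for Nop2 by -0.79 (adjusted p = 0.0051). Nop2 went the other way at 2 h, where its response was 0.64 higher (adjusted p = 0.031). Ncl, for the nucleolar protein nucleolin, passed in 0 of 13 comparisons.

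Of 24 genes for polyamine, nucleotide and folate-dependent synthesis, 21 were tested. In control cells 4 were higher and 1 lower at 6 h (19% and 4.76%, beside 12.1% and 15.4% over all genes), against 7 higher and 0 lower at 12 h (33.3% and 0%, beside 12.7% and 15.1%). With Akti1/2, 2 were higher and 11 lower by 6 h (9.52% and 52.4%, beside 15.4% and 17.9%), against 2 higher and 12 lower by 12 h (9.52% and 57.1%, beside 21.1% and 23.4%). The response at 6 h was lower for 8 and higher for 2 (38.1% and 9.52%, beside 9.24% and 10.3% over all genes), and at 12 h lower for 15 and higher for 2 (71.4% and 9.52%, beside 16.2% and 16.3%, median -1.03). Ctps, for CTP synthase, read 10.43 and 10.35 at 0 h, 10.84 and 10.92 at 6 h, then 11.15 and 11.12 at 12 h in control cells. With Akti1/2 it read 10.30 and 10.24, 9.90 and 9.84, and 9.63 and 9.78 at these times, so that the arms moved apart. Its response differed by -0.89 at 6 h (adjusted p = 0.000978) and by -1.31 at 12 h (adjusted p = 3.3e-05). Umps, for UMP synthase, differed in response by -1.11 at 6 h and by -1.74 at 12 h (adjusted p = 0.0012 and 2.9e-05). Odc1, the rate-limiting enzyme of polyamine synthesis, and Cad, which begins pyrimidine synthesis, missed the threshold at 6 h (-0.53 and -0.86, adjusted p = 0.0613 and 0.0704) and passed at 12 h (-0.97 and -1.03, adjusted p = 0.0018 and 0.023).

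The genes of this list whose response was called higher at 6 and 12 h were Shmt2 and Mthfd2, mitochondrial enzymes of folate metabolism that are also known as targets of the stress factor ATF4. Shmt2 rose by 1.42 at 6 h with Akti1/2 (adjusted p = 9.8e-06) and differed by 0.31 in control cells (adjusted p = 0.11), a response 1.11 higher (adjusted p = 0.0021). For Mthfd2 the response was 1.07 higher at 2 h, 0.98 at 6 h and 0.65 at 12 h (adjusted p = 0.006, 0.0029 and 0.015).

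Of 21 genes for the cell cycle and translation factors, 16 were tested. The response was lower for 4 at 6 h and 8 at 12 h (25% and 50%, beside 9.24% and 16.2% over all genes), and higher for 0 at both (beside 10.3% and 16.3%); at an unadjusted p under 0.05, 1 was higher at 6 h and 0 at 12 h. Ccnd3, for cyclin D3, read 10.37 and 10.47 at 0 h, 9.81 and 9.83 at 6 h, then 10.41 and 10.38 at 12 h in control cells. With Akti1/2 it read 10.24 and 10.38, then 8.75 and 8.73, and 8.86 and 8.71. Control cells had returned to the starting level by 12 h and Akti1/2-treated cells had not, and the response was different by -0.97 at 6 h and by -1.5 at 12 h (adjusted p = 0.0008 and 1.8e-05). Eif5a, a translation factor that carries hypusine, Eif4a1, the helicase of cap-dependent initiation, and Tfrc, the transferrin receptor, were lower in response at 6 h (-0.66, -0.53 and -0.52, adjusted p = 0.0065, 0.029 and 0.04). Of the 16 fits without 1 array, the call of Eif4a1 was lost in 6 and that of Tfrc in 11 (adjusted p up to 0.102 and 0.119), and both were lost in a fit of only the groups compared (adjusted p = 0.0704 and 0.094).

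Of 18 genes for glucose and glutamine use, 14 were tested, and in control cells 0 were called higher (beside 4.42%, 12.1% and 12.7% of all genes at 2, 6 and 12 h): 4 were lower at 2 h, 6 at 6 h and 2 at 12 h (28.6%, 42.9% and 14.3%, beside 5.86%, 15.4% and 15.1% over all genes). With Akti1/2, 5, 10 and 8 were lower (35.7%, 71.4% and 57.1%, beside 20.9%, 17.9% and 23.4%), with 2 higher at 12 h (14.3%, beside 21.1%). The response differed for fewer of them, 2 lower at 6 h and 3 lower with 2 higher at 12 h (14.3% lower at 6 h, 21.4% lower and 14.3% higher at 12 h), near the shares over all genes (9.24% lower at 6 h, 16.2% lower and 16.3% higher at 12 h). Pgam1, for phosphoglycerate mutase, read 10.47 and 10.34 at 0 h and 10.10 and 10.13 at 6 h in control cells, and 10.23 and 10.36 and then 8.93 and 8.94 with Akti1/2. Its response differed by -1.06 at 6 h (adjusted p = 0.0011), and that of Tpi1, triosephosphate isomerase, by -0.48 (adjusted p = 0.027), a call lost in 7 of the 16 fits without 1 array (adjusted p up to 0.0745) and in a fit of only the groups compared (adjusted p = 0.0676). Neither Pfkl, a phosphofructokinase subunit, nor Ldha, lactate dehydrogenase A, passed (-0.38 and -0.36, adjusted p = 0.13 and 0.14).

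Genes described as held down by MYC did not move as 1 group. Of 18 listed, 10 were tested, and the response at 6 h was higher for 3 and lower for 3 (30% each, beside 10.3% and 9.24% over all genes), and at 12 h higher for 4 and lower for 2 (40% and 20%, beside 16.3% and 16.2%). Ddit3, for the stress factor CHOP, read 7.19 and 7.20 at 0 h and 7.52 and 7.41 at 6 h in control cells, against 8.28 and 8.25 and then 10.66 and 10.63 with Akti1/2, already 1.07 higher before stimulation (adjusted p = 0.000665). Klf6, a Krüppel-like factor, fell by 1.38 in control cells and rose by 0.68 with Akti1/2 at 6 h, a response 2.07 higher (adjusted p = 0.00025). Ndrg1, a growth-arrest and stress gene, was 0.88 higher in response (adjusted p = 0.012), and 0.77 higher without replicate 1 of the unstimulated control cells (adjusted p = 0.0545). Cdkn1a, for the cell cycle inhibitor p21, ran the other way: its response differed by -1.14 (adjusted p = 0.0048). Cdkn1b, for p27, was above background on 0 arrays.

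**Figure D4:**
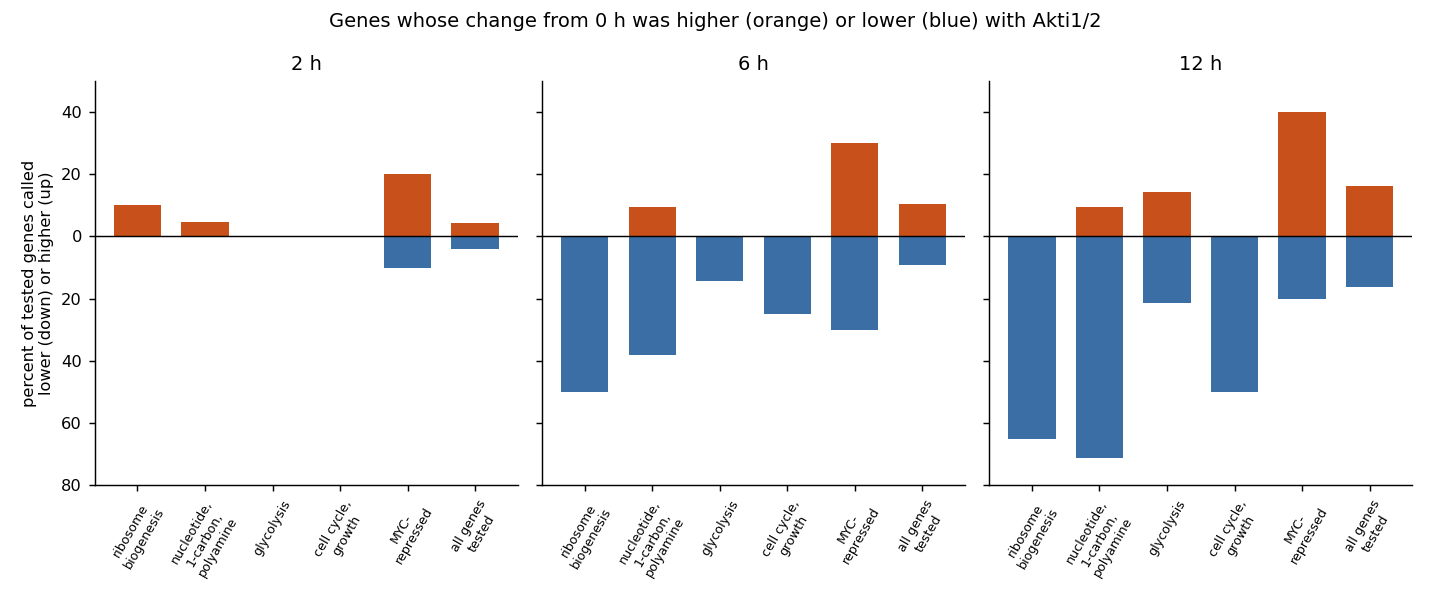
Percent of the tested genes of each list (y axis, up for higher and down for lower) whose change from 0 h was called different with Akti1/2 at 2, 6 and 12 h, with all 7395 genes tested as the last bar. At 12 h, 65% of the ribosome assembly genes and 71.4% of the nucleotide, polyamine and folate genes were lower, against 16.2% of all genes.

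Counted by gene, the E-box letters stood in a promoter window of 5 of 18 tested ribosome assembly genes with a window (27.8%) and 4 of 19 nucleotide genes (21.1%). They stood in 7 of 15 cell cycle and translation genes (46.7%), 2 of 11 glucose genes (18.2%) and 3 of 9 repressed genes (33.3%), beside 8.09% of 27025 genes. Lists and background differ in windows per gene, and the background was not limited to tested genes, so these shares are not matched. Counted by window, the lists in this order had 21.7%, 21.7%, 32.1%, 10% and 23.1%, beside 7.15% of 32851 windows. Each of these lists thus held the letters. The stretches of named genes show how the element sits among different flanks, again with the E-box in capitals, on the strand of the gene:
Nop2, chr6:125131813-125131838, plus strand: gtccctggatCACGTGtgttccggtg
Eif5a, chr11:69921445-69921470, minus strand: ggggcggggtCACGTGtgtgcgtcat
Eif4a1, chr11:69672597-69672622, minus strand: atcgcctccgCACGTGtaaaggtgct
Ldha, chr7:46845649-46845674, plus strand: tgtcgcagcaCACGTGgagccactct
Klf6, chr13:5861436-5861461, plus strand: ccaagctggtCACGTGgggggagaag
Eif5a and Ldha each held a further E-box that is not shown. The windows of Nip7, Ppan, Rrp9, Ctps, Umps, Odc1, Ncl, Cad and Ccnd3, among others, did not hold these letters, which says only that they are absent from these windows. Of the genes shown, Nop2, Eif5a and Eif4a1 were lower in response at 6 h and Klf6 was higher, while Ldha did not pass. A link between the letters and the response was not tested.

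Cofactors, corepressors and regulators of MYC turnover formed another list. Of 28 listed, 19 were tested, and the response was lower for 1 and higher for 0 at 6 h (at an unadjusted p under 0.05, for 5 and 2), and lower for 6 and higher for 2 at 12 h. The shares that were lower, 5.26% at 6 h and 31.6% at 12 h, stand beside 9.24% and 16.2% over all genes. For those higher, the 0 of 19 at 6 h and 2 of 19 at 12 h stand beside 10.3% and 16.3%. Hdac2, a histone deacetylase of the SIN3 complex, read 11.37 and 11.36 at 0 h and 11.37 and 11.53 at 12 h in control cells, against 11.24 and 11.22 and then 9.86 and 10.15 with Akti1/2. It was the 1 call at 6 h (-0.62, adjusted p = 0.023), lost in 6 of the 16 fits without 1 array (adjusted p up to 0.0782), and reached -1.32 at 12 h (adjusted p = 0.00014). Mycbp, a MYC-binding protein, and Kat2a, the acetyltransferase GCN5, differed in response by -1.69 and -1.11 at 12 h (adjusted p = 3.8e-05 and 0.0039), and at 6 h neither passed (-0.54 and -0.70). Aurka, a kinase that stabilizes MYCN, differed between the arms by 0.42 at 6 h and by -0.44 at 12 h (adjusted p = 0.0217 and 0.0126), and its response passed at neither time.

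Among 2033 genes above background on all arrays whose group means spanned at least 1 log2 unit, those most like Myc over the 8 group means were Gfod2 (Pearson's r 0.892), BC055368 (0.879), Emilin2 (0.872), 1810055G02Rik (0.861) and Gpsm1 (0.861). Most opposite were Plk4 (-0.920), the kinase of centriole duplication, Gpr65 (-0.911), a proton-sensing receptor, and 4933426M11Rik (-0.872). All points come from the same 16 arrays, and with 8 means and 2033 genes such values describe the order of the groups only.

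**Figure D5:**
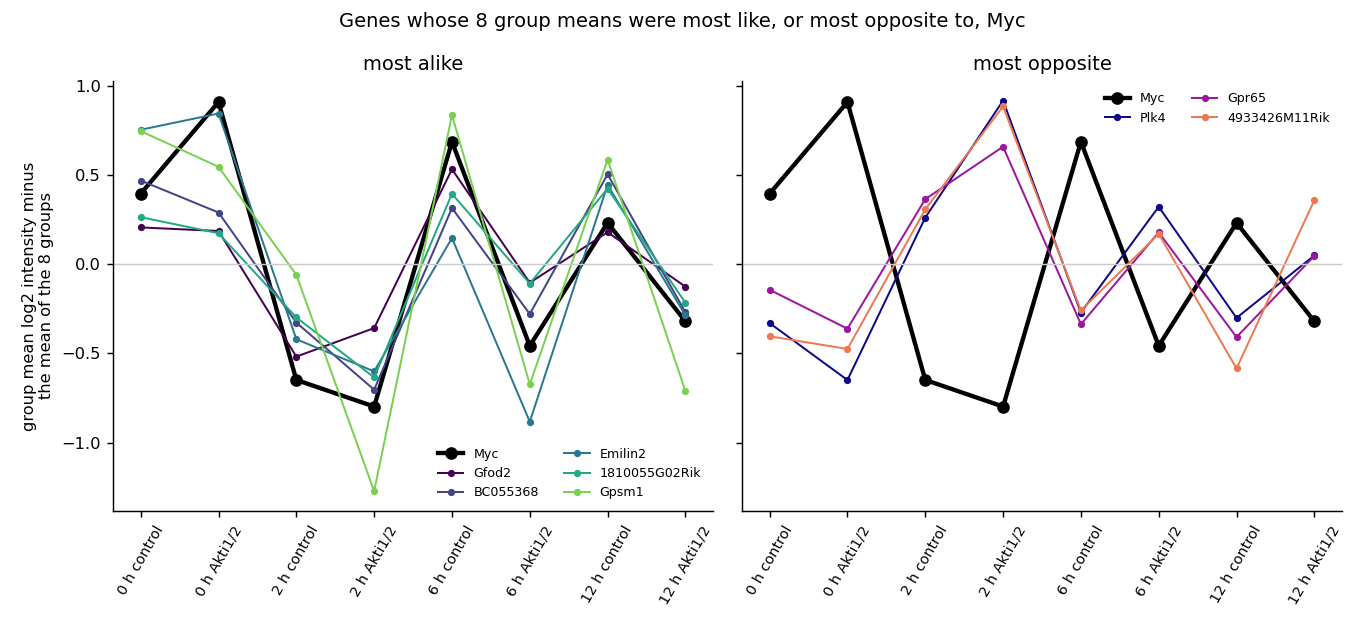
Group mean log2 intensity minus the mean of the 8 groups (y axis) for Myc (black) and the 5 genes most like it (left) and 3 most opposite (right), with the 8 groups on the x axis in order of time. Each of the 5 like genes was lower at 2 h than at 0 h in both arms and had a higher mean in control than in Akti1/2-treated cells at 6 and 12 h. They were picked for likeness over these same means, so this was largely fixed by the choice.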

How the data were processed

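The authors hybridized RNA of 16 samples to Illumina mouse RefSeq bead chips, and they deposited intensity values from the scanner software (per the file headers), 1 per gene and array, neither normalized nor background-subtracted. With a single entry per gene, isoforms cannot be separated. Background correction on the 798 negative controls, quantile normalization and log2 transformation were done with neqc (offset 16, limma 3.58.1, R 4.3.3). Genes detected on 2 or more arrays were fitted with lmFit, contrasts.fit and eBayes, with 8 groups in 1 model (8 residual degrees of freedom), with Benjamini-Hochberg adjustment over 7395 genes per comparison and a threshold of 0.05. Adjusted p-values are from this fit, except that those given for an alternative setting or without 1 array are from that alternative fit. Where a group was at background on both arrays, a fold is a bound against the higher of its own values and the lowest value above background. From each list, the 4 tested genes with the lowest p for a different response at 6 h were named, with Odc1, Ncl, Cad, Ldha and Cdkn1b. The members, lists and rules were chosen with earlier results of these data known, and the target lists hold textbook MYC targets. The steps were tested on simulated arrays. Figures were drawn with Python 3.11.15 and matplotlib 3.10.9. The alternatives were another normalization or scaling, other filters, a replicate or chip term, a trend in the variance, a fit of only the groups compared, and leaving out each array. A second deposited table of control probes was not used here. Some genes of the list of other cell types are not reported here.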

Additional observations from a re-analysis of the deposited data

Results flagged for a closer look

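These results are listed because the change from 0 h differed between Akti1/2-treated and control cells, each value being the log2 difference of the 2 changes that passed limma's test. Among the network genes, Myc gave -1.66 at 6 h and -1.07 at 12 h. Mxd3 gave -0.93 at 2 h and -0.84 at 6 h, calls that were lost in 13 and 8 of 16 fits without 1 array, and Mxd4 gave 2.06 at 12 h. The 12 h values of Mxd3 (-1.89) and Mnt (1.28) are fitted values with 1 and 2 of the 4 groups at background, so they do not measure the size. Mnt was also tested only through its other 2 groups, which both raise its value. Among genes of ribosome assembly at 6 h, Nip7 gave -1.0, Rrp9 -0.99, Nop2 -0.79 and Ppan -0.88. Among genes of nucleotide and folate metabolism, Ctps gave -0.89 and Umps -1.11, while Shmt2 gave 1.11 and Mthfd2 0.98. Pgam1 and Tpi1, of glycolysis, gave -1.06 and -0.48. Ccnd3 gave -0.97, Eif5a -0.66, Eif4a1 -0.53 and Tfrc -0.52. Among genes described as repressed by MYC, Ddit3 gave 2.11, Klf6 2.07 and Ndrg1 0.88, whereas Cdkn1a gave -1.14. The corepressor gene Hdac2 gave -0.62.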

How the results depend on the processing

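With 24 other settings, 2610 of 2767 values of single genes kept their side of the threshold, 40 of them changing sign without a call at either setting, 96 lost a call, 61 gained one and 0 called values reversed. Of these settings, 16 left out 1 array, often from a group not compared, where little could change. The total kept therefore overstates how stable the values are. The Myc responses at 6 and 12 h kept their calls throughout. Sizes depended on the setting too. With all arrays kept, other settings gave -1.657 to -0.9721 and -1.066 to -0.6316 for these responses. They gave -1.152 to -0.5421 for Myc at 2 h in control cells. With quantile normalization but no background correction, Mxd3 at 2 h in control cells was -0.3028 (-0.6176 in the report). The Mxd4 response at 6 h was then 0.5041 (0.8693). Folds therefore describe the main setting only. Of the counts of network genes called, those at 2, 6 and 12 h in control cells (2 each) became 1, 0 and 0 with only genes above background on all 16 arrays, those with Akti1/2 became 1 each, those between the arms 1 at 6 h and 2 at 12 h, and those of the response 0, 1 and 2, since this filter leaves Myc and Max. Without a filter on dim genes, control cells had 1 call at 2 h and 1 at 6 h, and counts were 0 and 1 for the response at 2 and 6 h. In a fit of only the groups compared, 1 was called at 2 h in control cells. The single response at 2 h (Mxd3) was also lost, to 0, with mean scaling, a replicate block, a chip block and only the groups compared. The lower Myc at 12 h was -0.44 (adjusted p = 0.0662) with mean scaling and -0.55 (adjusted p = 0.0526) without the filter. In the response lists, mean scaling gave 1 higher glycolytic and 1 higher cell cycle gene at 6 h (0 in the report), and a fit of only the groups compared gave 1 and 2 lower (2 and 4). At 12 h, 1 glycolytic gene was higher with mean scaling, no filter, the replicate block or only the groups compared, and 1 repressed gene was lower with mean scaling or no filter. The cause was not tested.

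Leaving out 1 array, Myc at 2 h in control cells ranged from -1.20 to -0.89 and Myc between the arms at 12 h from -0.72 to -0.39. Counts of network genes ranged from 0 to 3, 0 to 2 and 0 to 2 in control cells at 2, 6 and 12 h, from 0 to 1 and 3 to 6 between the arms at 2 and 12 h, and from 0 to 1 and 1 to 3 for the response at 2 and 6 h. For the response at 6 h, ribosome assembly genes ranged from 0 to 1 higher and 5 to 11 lower, nucleotide genes from 5 to 11 lower, glycolytic genes from 1 to 2 lower, cell cycle genes from 0 to 1 higher and 2 to 5 lower, and repressed genes from 1 to 3 lower. At 12 h, nucleotide genes ranged from 1 to 2 higher, glycolytic genes from 1 to 2 higher and 0 to 3 lower, and repressed genes from 1 to 2 lower.

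Replicate numbers follow the chips except in control cells at 12 h, where they are swapped. Deviations of same-numbered arrays correlated at a median of 0.0174 over 28 pairs of groups (-0.296 to 0.264). Those of arrays on the same chip correlated at a median of 0.0272. With the replicate block, the response of Max at 12 h and Mxi1 between the arms at 12 h gained a call (adjusted p = 0.034 and 0.0498). With 2 arrays a group, readings near background limit Mxi1, Mnt, Mga, Mycn and Mxd1.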
